A study of Mus musculus with 24 samples.

Results

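Calbindin (Calb1), calretinin (Calb2) and parvalbumin (Pvalb) are the calcium-binding proteins whose immunostaining is commonly used to sort inhibitory interneurons into classes. On the arrays used here they were measured by 6 of the 45101 probe sets, taken as every probe set annotated to one of these 3 genes, out of 18194 genes with a probe set of their own. Calb1 had 4 probe sets (1417504_at, 1456934_at, 1458836_at and 1448738_at), Calb2 had 1 (1451129_at) and Pvalb had 1 (1417653_at). No probe set named a member together with another gene. A signal is called low below when it lay under the median of its own array.

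The study measured messenger RNA in 24 samples of mouse neuron cultures, 2 arrays in each of 12 groups. The cultures came either from the medial ganglionic eminence (MGE), the ventral forebrain zone that makes many inhibitory interneurons, or from the cortex (CTX). Within each, Npas4 knockout (KO) cultures were set against wild-type (WT) littermate cultures, and each was taken before KCl (0 h) and after 1 and 6 h of depolarization with 55 mM KCl. NPAS4 is a transcription factor switched on by neuronal activity, and its targets among activity-induced genes are what the series was made to find. All 12 groups share the C57Bl/6 background, a start from embryos at day 14, and overnight silencing with tetrodotoxin and AP-5, also at 0 h, so none is an undisturbed culture. Time in culture is 10 days by the labels, while the design text puts 9 days before the silencing. How many embryos made a culture, and whether the 2 repeats of a group were separate cultures, is not given, so p-values measure the spread between these samples, which may be technical.

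All 3 proteins bind calcium through EF-hand loops. Calbindin and calretinin take up calcium quickly, and parvalbumin more slowly, so that they shape the size and length of calcium signals in the cell. In the cortex, parvalbumin marks fast-spiking basket and chandelier cells, which come mainly from the MGE, and in mice it appears late, after birth. Calretinin marks interneurons born largely in the caudal ganglionic eminence (CGE), some somatostatin cells, and Cajal-Retzius cells, the early neurons at the cortical surface that secrete reelin. Calbindin occurs in somatostatin interneurons, in young interneurons on their way out of the MGE, and in some pyramidal cells, so it does not separate inhibitory from excitatory neurons by itself.

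At 1 and 6 h the targeted gene, Npas4, was lower in every KO array than in every WT array of the same time. Its signal also rose after KCl in the KO arrays, by less than in WT. Npas4 ranged in log2 intensity between 5.35 and 5.82 over the 4 KO arrays before KCl, between 6.80 and 7.35 after 1 h and between 6.80 and 7.82 after 6 h. The WT arrays ranged between 5.70 and 5.94 before KCl, 11.20 and 12.04 after 1 h, and 8.59 and 11.84 after 6 h. Array medians lay between 6.84 and 6.92 on the log2 scale, and the 2 arrays of a group correlated at 0.958 (MGE WT at 0 h) or more across probe sets. The cultures carried the markers of their labels. In the comparison of MGE with CTX over all arrays, 37.1% of all probe sets were higher and 33.5% lower. Of 10 measured GABAergic neuron markers, 10 were higher in MGE and 0 lower, led by Npy, a neuropeptide, by 4.26 ± 0.09 (log2 difference ± SE). Their mean log2 level was 11.58 to 12.26 in MGE arrays and 9.24 to 10.06 in CTX arrays. In every CTX array 9 of the 10 lay above the array median, so the CTX cultures carried these markers too. Of 11 measured cortical excitatory markers, 1 was higher in MGE and 10 were lower, led by Neurod6, which encodes a projection neuron transcription factor, by -8.71 ± 0.08.

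The 3 genes divided the cultures in different ways. Pvalb was higher in MGE than in CTX cultures, Calb2 was higher in CTX than in MGE cultures, and the 4 probe sets of Calb1 were also higher in CTX, by smaller amounts and at very different levels. Averaged over genotypes and times, Pvalb was 5.32-fold higher in MGE (log2 difference 2.41 ± 0.12 SE) and Calb2 was 6.95-fold lower in MGE (-2.80 ± 0.20), while Calb1 by probe set 1417504_at differed by -0.37 ± 0.15, a 1.29-fold difference. Pvalb was near or under the array median in CTX, so its true ratio may be larger than the fold given. Each of these averages set 12 MGE arrays against 12 CTX arrays. In limma's fit over all 45101 probe sets with Benjamini-Hochberg adjustment, 1 of the 6 member probe sets was called higher in MGE and 5 were called lower, at an adjusted p under 0.05. Of all probe sets, 70.6% were called in this comparison, so the calls alone say little about the members. The material is bulk RNA, in which fewer cells of a type and less RNA per cell cannot be told apart.

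**Figure D1:**
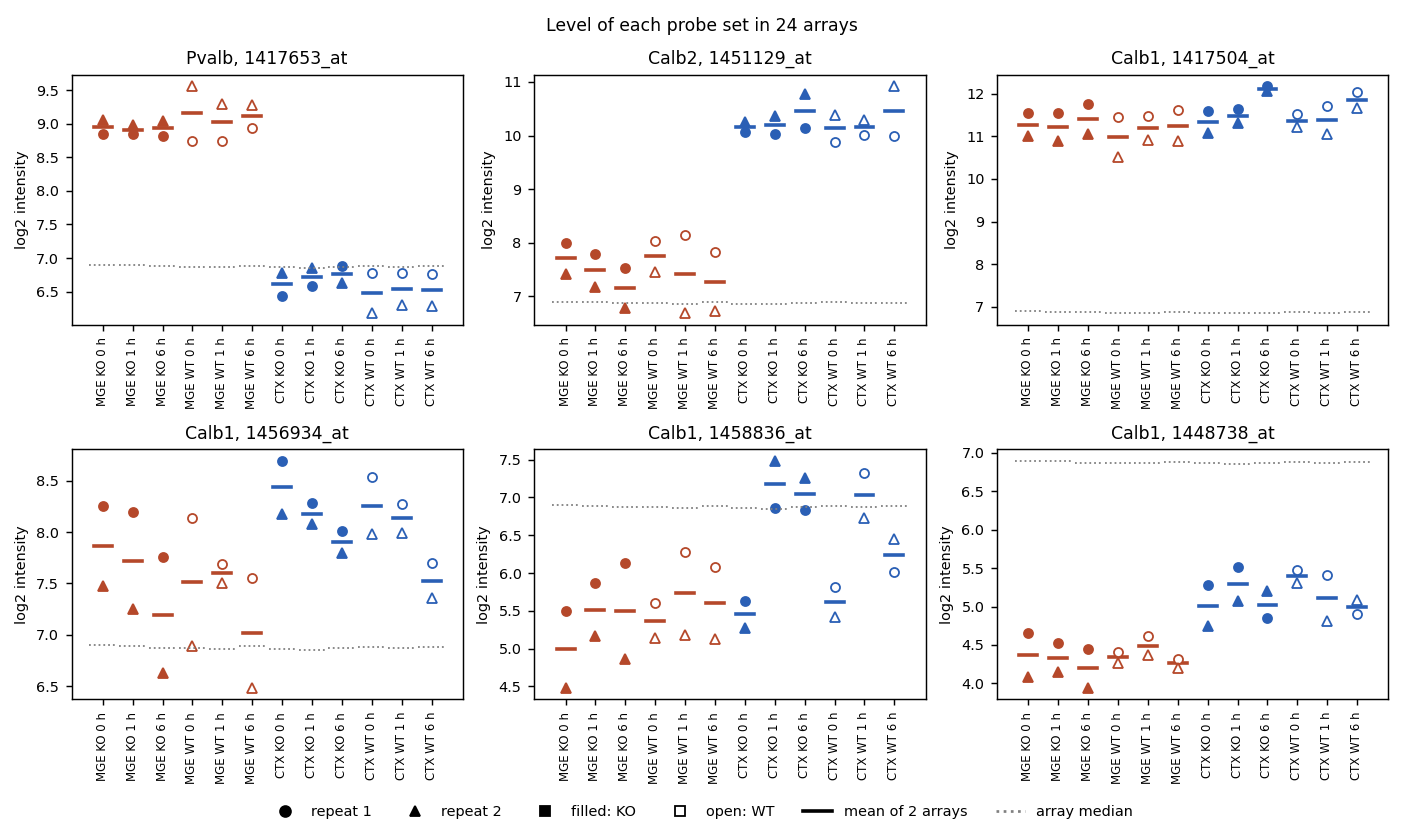
Level of the 6 probe sets of Pvalb, Calb2 and Calb1 in 24 arrays, as log2 intensity on a separate vertical axis for each probe set. Symbols are single arrays (circles repeat 1, triangles repeat 2, filled KO, open WT, red MGE, blue CTX), bars are the means of 2 arrays, and the dotted line is the array median; Pvalb and Calb2 separate MGE from CTX with no overlap, and Calb1 1448738_at lies under the median in all 24 arrays.

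Pvalb, the parvalbumin gene, had a moderate signal in every MGE array and a signal near the array median in CTX. In MGE KO cultures its log2 intensity was 8.85 and 9.05 before KCl, 8.84 and 8.99 after 1 h, and 8.82 and 9.04 after 6 h. In MGE WT cultures it was 8.75 and 9.57 before KCl, 8.75 and 9.30 after 1 h, and 8.95 and 9.28 after 6 h. All 12 MGE arrays lay above their array median, and no group of them stood apart from the others.

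In CTX KO cultures Pvalb was at 6.43 and 6.78 before KCl, 6.59 and 6.85 after 1 h, and 6.89 and 6.63 after 6 h. In CTX WT cultures it was at 6.78 and 6.18 before KCl, 6.78 and 6.30 after 1 h, and 6.77 and 6.28 after 6 h. Here 11 of 12 arrays lay below the array median and are low signal. The lowest MGE array, at 8.75, was well above the highest CTX array, at 6.89. On the linear scale Pvalb ranged from 429 to 758 intensity units in MGE and from 72.3 to 118 in CTX.

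The Pvalb difference was called in each of the 6 single comparisons. In KO cultures MGE exceeded CTX by 2.34 at 0 h, 2.20 at 1 h and 2.18 at 6 h on the log2 scale (SE 0.29 each). In WT cultures the differences were 2.68, 2.48 and 2.59 (SE 0.29 each). The adjusted p of these limma tests ranged from 4.1e-06 in WT at 0 h to 4.1e-05 in KO at 1 h.

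The stretch before the outermost start of Pvalb, the member that was higher in MGE, is shown with the motifs a search found in it. Among them are the core letters of NPAS4, the factor missing in KO cultures. RefSeq (GRCm38.p6) places the 250 bases upstream of the outermost Pvalb start at chr15:78206401-78206650 on the minus strand, and they are given here as transcribed, 5′ to 3′. Capitals mark TATTTAA, an AT-rich stretch 32 bases before the start, and CACGA, which is TCGTG read on the other strand, 12 bases before it.
Pvalb: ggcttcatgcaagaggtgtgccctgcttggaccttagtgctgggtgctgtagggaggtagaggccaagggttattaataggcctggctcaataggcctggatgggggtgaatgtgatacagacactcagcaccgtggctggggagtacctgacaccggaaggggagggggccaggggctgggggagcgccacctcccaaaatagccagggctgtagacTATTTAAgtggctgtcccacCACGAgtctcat

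TCGTG is the core to which NPAS4 binds together with an ARNT partner. The letters TCGTG, searched on both strands, occurred in 13.3% of the 32851 stretches of the same length in RefSeq, so this match is a description and not evidence of a site. TATTTAA, a search added after the sequence was seen, occurred in 4.18% of them. TATAAA, the E-box CANNTG, the short cAMP element TGACG and the full element TGACGTCA were also searched on both strands and were not found in this window, against 12.4%, 66.2%, 17.8% and 1.55% of all stretches. TGACG is contained in TGACGTCA, and the other motifs do not contain each other.

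Calb2, the calretinin gene, showed the opposite arrangement. In MGE KO cultures its log2 intensity was 8.0 and 7.42 before KCl, 7.79 and 7.17 after 1 h, and 7.53 and 6.78 after 6 h. In MGE WT cultures it was 8.03 and 7.46 before KCl, 8.15 and 6.68 after 1 h, and 7.83 and 6.72 after 6 h. Repeat 1 was above repeat 2 in all 6 MGE groups, and 3 of the 12 MGE arrays, all of repeat 2, fell below the array median.

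In CTX KO cultures Calb2 was at 10.06 and 10.26 before KCl, 10.03 and 10.37 after 1 h, and 10.14 and 10.78 after 6 h. In CTX WT cultures it was at 9.88 and 10.38 before KCl, 10.01 and 10.30 after 1 h, and 9.99 and 10.93 after 6 h. All 12 CTX arrays were above the array median, and the order of the repeats was reversed, with repeat 2 above repeat 1 in all 6 CTX groups. The highest MGE array, at 8.15, stayed under the lowest CTX array, at 9.88.

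The Calb2 difference was also called in each single comparison. In KO cultures MGE minus CTX was -2.45 at 0 h, -2.72 at 1 h and -3.31 at 6 h (SE 0.48 each). In WT cultures it was -2.39, -2.74 and -3.18 (SE 0.48 each). The adjusted p in limma's fit ranged from 6.6e-05 in KO at 6 h to 0.0012 in KO at 0 h.

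Ordered by group mean, the 6 MGE groups held the top 6 places for Pvalb, and the 6 CTX groups held the top 6 places for Calb2. Within each block of 6 the ranges of neighbouring groups overlapped throughout for both genes, and the ranges of the 6th and 7th groups did not. Across the 24 arrays the Pvalb and Calb2 levels correlated at -0.971 (Pearson), which mostly restates the split between the cultures. Within the 12 MGE arrays the correlation was -0.652 and within the 12 CTX arrays -0.452, and these arrays share genotypes, times and the repeat pattern just given.

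Calb1, the calbindin gene, had a strong signal in both cultures by its probe set 1417504_at. Its log2 intensity in MGE KO cultures was 11.53 and 11.0 before KCl, 11.54 and 10.88 after 1 h, and 11.75 and 11.05 after 6 h. In MGE WT cultures it was 11.44 and 10.52 before KCl, 11.47 and 10.92 after 1 h, and 11.61 and 10.89 after 6 h. These values lay between the 81.3 and 90.4 percentiles of their arrays.

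In CTX KO cultures the same probe set was at 11.60 and 11.07 before KCl, 11.63 and 11.31 after 1 h, and 12.18 and 12.05 after 6 h. In CTX WT cultures it was at 11.52 and 11.22 before KCl, 11.70 and 11.06 after 1 h, and 12.03 and 11.67 after 6 h. MGE and CTX arrays overlapped at 0, 1 and 6 h, while at 6 h those of the same genotype did not. Repeat 1 was above repeat 2 in all 12 groups.

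The 6 single comparisons of 1417504_at between cultures were not called. The differences ran from -0.72 in KO at 6 h to -0.06 in KO at 0 h (SE 0.37 each). Averaged over all arrays the difference of -0.37 had an adjusted p of 0.039 in limma's fit, with a 95% interval of -0.69 to -0.05. This call was lost in 12 of the 24 fits that left out 1 array, namely each of the 6 MGE arrays of repeat 2 and each of the 6 CTX arrays of repeat 1, with values between -0.29 and -0.36 in those fits, and it was lost after quantile normalization (-0.32, adjusted p = 0.065).

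**Figure D2:**
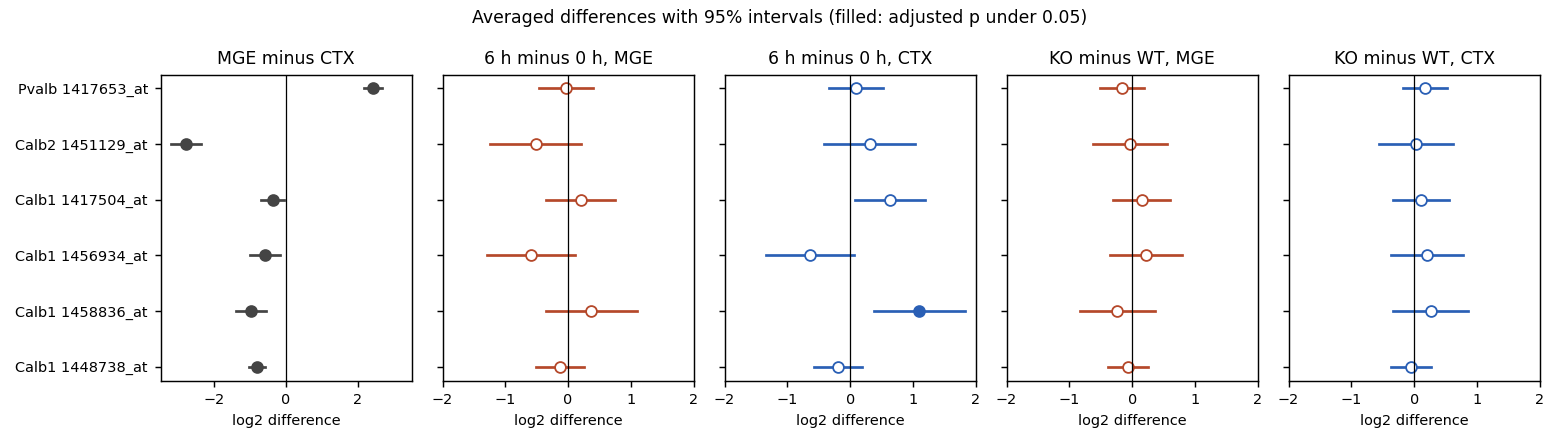
Averaged log2 differences of the 6 probe sets with 95% intervals, for MGE minus CTX over 24 arrays, for 6 h minus 0 h in MGE and in CTX over both genotypes, and for KO minus WT in MGE and in CTX over 3 times. Filled symbols have an adjusted p under 0.05 in limma's fit: all 6 probe sets between the cultures, Calb1 1458836_at for 6 h in CTX, and none between genotypes.

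The other 3 Calb1 probe sets were not in full accord with 1417504_at. Probe set 1456934_at ranged from 6.48 to 8.25 in MGE arrays (median 7.53) and from 7.36 to 8.70 in CTX arrays (median 8.04), with 2 MGE arrays below the array median. Probe set 1458836_at ranged from 4.48 to 6.28 in MGE arrays, all 12 of them low, and from 5.28 to 7.49 in CTX arrays, of which 4 exceeded the array median. Probe set 1448738_at ranged from 3.94 to 4.66 in MGE arrays and from 4.75 to 5.51 in CTX arrays, without overlap but with low signal in all 24.

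All 3 were lower in MGE on average, by -0.59 ± 0.19 for 1456934_at (adjusted p = 0.012), -0.97 ± 0.20 for 1458836_at (4.1e-04) and -0.81 ± 0.11 for 1448738_at (5.2e-06) in limma's fit. In single comparisons 1456934_at was called in none, 1458836_at was called in KO at 1 h (-1.66 ± 0.48) and at 6 h (-1.55 ± 0.48) and in WT at 1 h (-1.30 ± 0.48), and 1448738_at was called in KO at 1 and 6 h and in WT at 0 and 6 h. The share of all probe sets called in these comparisons was 32.4% in KO at 0 h, 32.5% in KO at 1 h, 39.6% in KO at 6 h, 44.5% in WT at 0 h, 37.4% in WT at 1 h and 39.9% in WT at 6 h. Against this, members called higher in MGE numbered 1 in each, and members called lower numbered 1, 3, 3, 2, 2 and 2 in that order.

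The call of 1448738_at in WT at 0 h was kept in all 10 alternatives that tested it, with values from -1.16 to -0.50. The other single calls of 1458836_at and 1448738_at rested on few arrays. For 1458836_at the call in KO was lost without repeat 2 of either culture at 1 h (values -1.31 and -1.34) and at 6 h (-0.90 and -1.33). In WT at 1 h it was lost without MGE repeat 2 or either CTX repeat, with values between -0.75 and -1.59. For 1448738_at the call in WT at 6 h was lost without any 1 of the 4 arrays, with values between -0.64 and -0.83. In KO it was lost at 1 h without MGE repeat 2 (-0.77) or CTX repeat 1 (-0.74), and at 6 h without repeat 2 of either (-0.57 and -0.65).

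Depolarization left Pvalb within the spread of the arrays. Averaged over genotypes, Pvalb at 6 h differed from 0 h by -0.03 ± 0.20 in MGE (95% interval -0.46 to 0.40) and by 0.10 ± 0.20 in CTX (-0.33 to 0.53). For Calb2 the difference was -0.51 ± 0.34 in MGE (-1.24 to 0.21) and 0.31 ± 0.34 in CTX (-0.41 to 1.04). None of these 4 was called in limma's fit. Without 1 array the Calb2 values ranged from -0.79 to -0.23 in MGE and from 0.078 to 0.55 in CTX. Calb2 at 6 h minus 0 h was also taken between arrays of the same repeat number. It was -0.47 and -0.64 in MGE KO cultures and -0.20 and -0.74 in MGE WT cultures. In CTX it was 0.08 and 0.53 in KO and 0.10 and 0.55 in WT cultures, all 4 positive. All 4 MGE differences were negative, but the repeat numbers did not pair the MGE arrays, so this shared sign rests on the matching. Without matching, the 0 h and 6 h ranges of Calb2 overlapped in KO and in WT, in MGE and in CTX. The difference between the cultures in the 6 h response of Calb2 was itself not called, at -0.86 ± 0.68 in KO and -0.79 ± 0.68 in WT. Such a difference was called for 4.37% of all probe sets in KO and 6.57% in WT, and for 0 of 6 members in each by limma. An unadjusted p under 0.05 was found for 0 members, against 16.4% of all probe sets in KO and 22.9% in WT.

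Calb1 showed the larger values over time, and its probe sets differed in sign. In CTX cultures 1417504_at at 6 h stood above 0 h by 0.78 ± 0.37 in KO and by 0.48 ± 0.37 in WT, with within-repeat differences of 0.58 and 0.98 in KO and of 0.51 and 0.45 in WT. The average over genotypes, 0.63 ± 0.26 or 1.55-fold, was not called in limma's fit (adjusted p = 0.074). The repeat numbers paired the CTX arrays, so the same fit was also made with the repeat as a block. With it the adjusted p was 5.9e-05 for the average, 3.5e-04 in KO and 0.011 in WT. That fit also gave the MGE arrays a repeat term, although their numbers did not pair them, and used a common spread for all arrays. The calls and p-values with the block in CTX, here and below, rest in part on that MGE term. CTX KO at 6 h and CTX WT at 6 h held the top 2 places among the 12 groups for 1417504_at, and lower neighbours overlapped. The CTX KO arrays at 6 h lay above all others. The CTX WT arrays at 6 h (11.67 and 12.03) did not overlap the group next in order. They did overlap MGE KO at 6 h (up to 11.75) and CTX WT at 1 h (up to 11.70). In MGE the average was 0.20 ± 0.26 and was not called.

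Over the same interval 1456934_at had the opposite sign. In CTX it differed by -0.53 ± 0.47 in KO and by -0.73 ± 0.47 in WT, with within-repeat differences of -0.68 and -0.38 in KO and of -0.84 and -0.62 in WT. The average of -0.63 ± 0.33 was not called without the block (adjusted p = 0.16), and with the block its adjusted p was 0.0019 for the average, 0.056 in KO and 0.011 in WT. With the block 38.0% of all probe sets were called for the CTX average at 6 h, 27.5% in KO and 26.6% in WT, and 3, 2 and 2 of the 6 members. In MGE cultures the average was -0.58 ± 0.33, also not called. Thus these 2 Calb1 probe sets gave differences of opposite sign and nearly the same size in the same CTX arrays, and no single direction can be given for Calb1 messenger RNA at 6 h. Which part of the transcript each probe set reads is not given in the files used here.

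**Figure D3:**
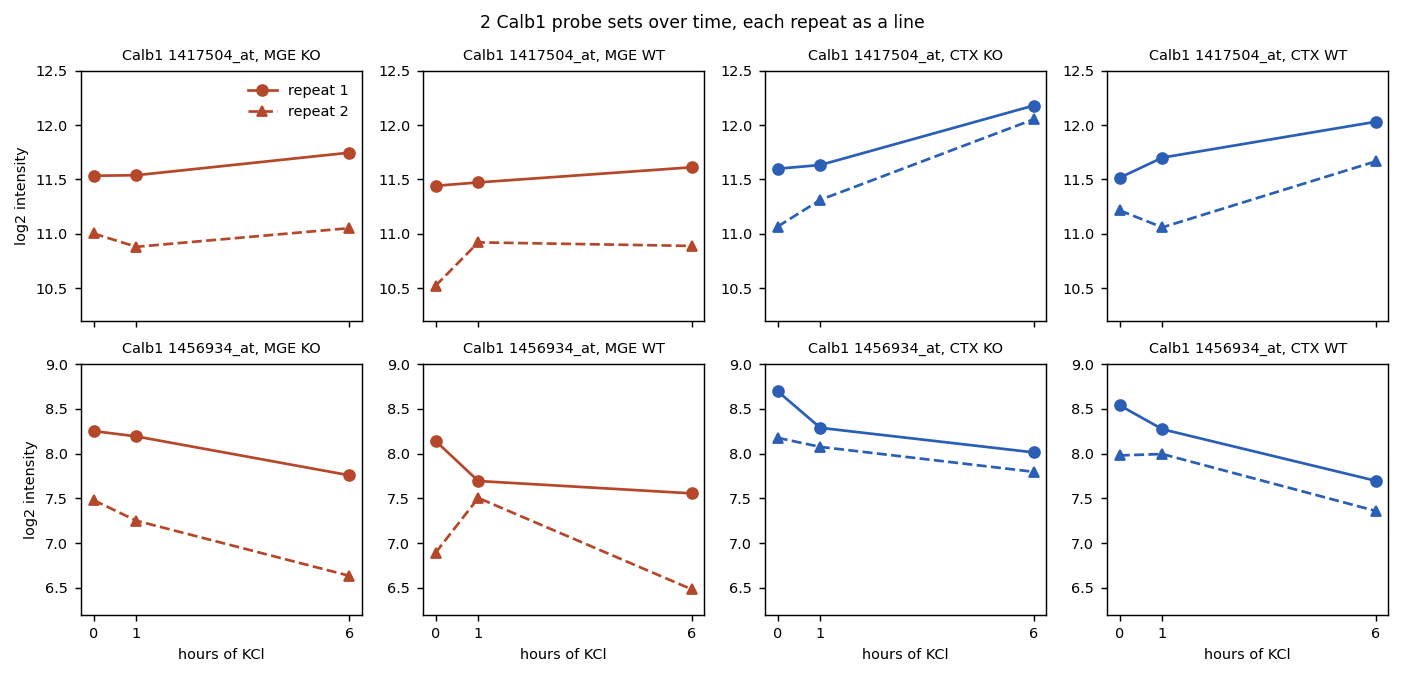
Log2 intensity of the Calb1 probe sets 1417504_at (top row) and 1456934_at (bottom row) at 0, 1 and 6 h of KCl in MGE KO, MGE WT, CTX KO and CTX WT cultures, with each repeat as a line. In CTX all 4 lines of 1417504_at end above their start at 6 h, and all 4 lines of 1456934_at end below it.

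The third Calb1 probe set, 1458836_at, gave the only depolarization calls among the members without the block. In CTX KO cultures its log2 intensity was 5.63 and 5.28 before KCl, 6.86 and 7.49 after 1 h, and 6.83 and 7.26 after 6 h. In CTX WT cultures it was 5.82 and 5.42 before KCl, 7.33 and 6.73 after 1 h, and 6.02 and 6.45 after 6 h. The 4 CTX arrays at 0 h were all low and lay under the 8 later ones, and in WT the 6 h arrays lay under the 1 h arrays.

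The rise at 6 h in CTX KO was 1.59 ± 0.48 (adjusted p = 0.025) and the average over genotypes was 1.10 ± 0.34 (0.020) in limma's fit. Of all probe sets 24.1% and 34.6% were called in these comparisons, and 1 of the 6 members was called in each. At 1 h the values were 1.72 ± 0.48 in CTX KO and 1.41 ± 0.48 in CTX WT, with adjusted p of 0.12 and 0.26, and of 0.0036 and 0.013 with the repeat as a block. The share of probe sets called at 1 h with the block was 1.95% in KO and 2.13% in WT, and 1 of the 6 members was called in each. The call in CTX KO at 6 h was lost without any 1 of its 4 arrays (values 1.38 to 1.80), and the averaged call was lost without any repeat 2 array at 0 or 6 h (lowest value 0.99, highest adjusted p 0.070). In MGE cultures 1458836_at stayed low at all times, with an average change at 6 h of 0.37 ± 0.34. The difference between the cultures in the 1 h response was -1.19 ± 0.69 in KO and -1.05 ± 0.69 in WT and was not called, in a comparison where 0.00443% of probe sets were called in KO and 0.0222% in WT.

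In the remaining depolarization comparisons 0 of 6 members were called in limma's fit, among 1 h and 6 h in MGE KO and MGE WT, 1 h in CTX KO and CTX WT, and 6 h in CTX WT. The share of all probe sets called was 0.663% in MGE KO and 0.736% in MGE WT at 1 h, 1.57% in CTX KO and 1.65% in CTX WT at 1 h, and 9.79% in MGE KO, 14.3% in MGE WT and 22.8% in CTX WT at 6 h. An unadjusted p under 0.05 was found for 1 member at 1 h in CTX KO and for 1 at 1 h in CTX WT, and for 0 in the other 5 of these comparisons. Of all probe sets 4.78% had one in MGE KO, 6.81% in MGE WT, 7.85% in CTX KO and 8.18% in CTX WT at 1 h. At 6 h the shares were 20.6% in MGE KO, 28.4% in MGE WT and 32.6% in CTX WT.

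Loss of Npas4 was not accompanied by a called change in any member. Averaged over 3 times, KO minus WT for Pvalb was -0.17 ± 0.16 in MGE (95% interval -0.52 to 0.19) and 0.18 ± 0.16 in CTX (-0.17 to 0.53). For Calb2 it was -0.03 ± 0.28 in MGE (-0.62 to 0.56) and 0.03 ± 0.28 in CTX (-0.56 to 0.62). For Calb1 by 1417504_at it was 0.15 ± 0.21 in MGE (-0.30 to 0.60) and 0.11 ± 0.21 in CTX (-0.34 to 0.56). These intervals leave room for differences of about the size of their bounds in either direction.

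In all 8 genotype comparisons 0 of 6 member probe sets were called by limma, 0 with the repeat as a block, and 0 had an unadjusted p under 0.05. Of all probe sets 15.4% had such an unadjusted p in MGE at 0 h, 5.41% at 1 h, 2.85% at 6 h and 23% on average. In CTX the shares were 2.09%, 1.81%, 4.61% and 4.23% in that order. Few probe sets of any gene were called in MGE: 0.0200% at 0 h, 0.0820% at 1 h, 0.0200% at 6 h and 0.122% on average. In CTX the shares were 0% at 0 h, 0.00222% at 1 h, 0.0532% at 6 h and 0.00222% on average, and with the block 0%, 0.00222%, 0.162% and 0.0488% in the same order. The largest single-time difference among the members was 0.81 ± 0.48 for Calb1 1458836_at in CTX at 6 h, with arrays of 6.83 and 7.26 in KO against 6.02 and 6.45 in WT. The groups did not overlap there, and the adjusted p was 1.0. The interaction of genotype with depolarization was likewise called by limma for 0 of the 6 members in either culture, with 0 at an unadjusted p under 0.05, and for 0.00222% of all probe sets at 1 h and 0.00443% at 6 h in each culture. The share of all probe sets with such an unadjusted p was 0.847% at 1 h and 2.63% at 6 h in MGE. In CTX it was 1.46% and 2.72%.

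Further genes of the same protein family were read in the same comparison. Of 29 further EF-hand genes listed, 25 were measured, and 7 were higher in MGE, 13 were lower and 5 were not called, where 70.6% of all probe sets were called, so the count says little about the family. Their median difference was -0.28, against 0.02 for all probe sets. Necab1, a neuronal EF-hand protein, was lower in MGE by -4.01 ± 0.19, and Caln1, calneuron, by -3.11 ± 0.17. S100a6, calcyclin, was higher in MGE by 2.57 ± 0.34. Efhd1, a mitochondrial EF-hand protein, was lower by -2.19 ± 0.07 with low signal in every array.

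Genes known from Pvalb cells lay on both sides. Of 15 listed, all measured, 9 were higher in MGE and 4 were lower, with a median of 1.01, where 37.1% of all probe sets were higher and 33.5% lower, with a median of 0.02. Lhx6, the transcription factor that specifies MGE interneurons, was higher in MGE by 3.37 ± 0.11, and Sox6, which acts in the same lineage, by 3.22 ± 0.11. Kcna2, a potassium channel subunit, was higher by 1.79 ± 0.09. Satb1, a chromatin organizer that also acts in these interneurons, went the other way at -2.56 ± 0.11 and is expressed in cortical projection neurons as well. Lhx6 is also on the list of GABAergic neuron markers.

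Genes of calretinin cells and CGE interneurons also lay on both sides. Of 12 listed, all measured, 2 were higher in MGE and 5 were lower, with a median of -0.03, against the same background. Cck, cholecystokinin, was lower in MGE by -3.74 ± 0.10, the nuclear receptor Nr2f1 by -2.53 ± 0.22, and Cnr1, the cannabinoid receptor, by -2.31 ± 0.19, whereas Penk, the enkephalin precursor, was higher by 2.75 ± 0.15. Cck, Nr2f1 and Cnr1 are also expressed in cortical excitatory neurons. Vip, the peptide that defines a large class of CGE interneurons, lay under the array median in all 24 arrays and was not called (0.17 ± 0.08).

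**Figure D4:**
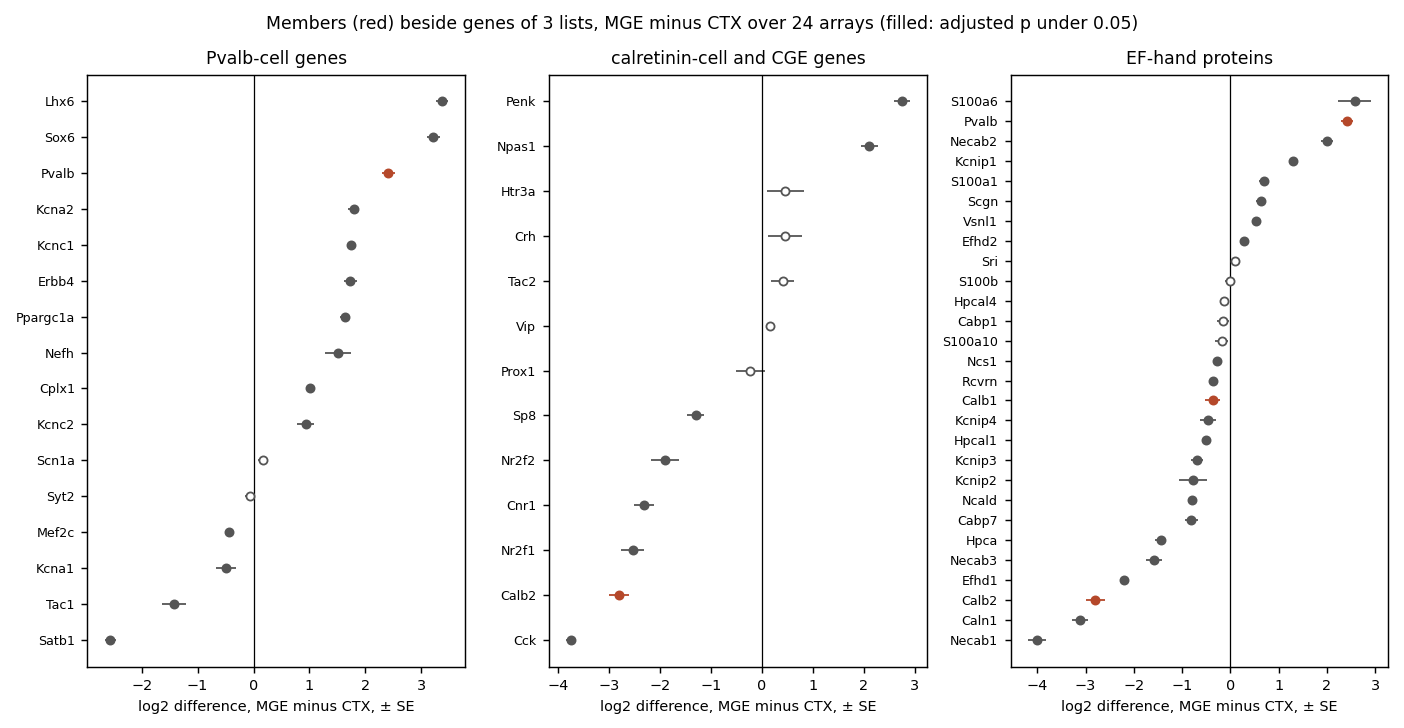
MGE minus CTX log2 differences over 24 arrays, ± SE, for the genes of the Pvalb-cell list, the calretinin-cell and CGE list and the EF-hand list, with Pvalb, Calb2 and Calb1 (1417504_at) in red and filled symbols for an adjusted p under 0.05. Both lists of cell genes lie on both sides. In the Pvalb-cell list 9 genes, Lhx6 and Sox6 among them, are called on the MGE side with Pvalb. The 4 called on the CTX side are Satb1, Tac1, Kcna1 and Mef2c. In the calretinin-cell list 5 genes, Cck and Nr2f1 among them, are called on the CTX side with Calb2, and 2, Penk and Npas1, on the MGE side.

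Markers of other cells were read in the same comparison, and their part in the member results was not tested. Their counts of calls stand against 70.6% of all probe sets called, and say little by themselves. Of 10 listed Cajal-Retzius genes, 3 were higher in MGE and 5 were lower. Their mean log2 level was 7.33 to 7.60 in MGE arrays and 7.38 to 8.17 in CTX arrays. Nhlh2 was lower in MGE by -2.56 ± 0.13 and Ebf3 by -2.11 ± 0.10, while Reln, reelin, was higher by 1.87 ± 0.05. Trp73, the most specific of them, as well as Lhx1, Lhx5 and Ebf2 lay under the array median in all 24 arrays.

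For glial and other lists the mean log2 levels were as follows. Astrocyte genes, of which 3 of 6 were higher in MGE and 1 lower, averaged 9.60 to 10.10 in MGE arrays and 8.48 to 9.87 in CTX arrays. Microglial genes, 4 of 7 higher and 1 lower, averaged 6.78 to 8.29 in MGE and 6.24 to 6.97 in CTX. Progenitor genes, 5 of 7 higher and 1 lower, averaged 8.90 to 9.53 in MGE and 7.39 to 8.89 in CTX. Of the oligodendrocyte lineage 3 of 5 measured genes were higher and 1 lower, of vascular genes 2 of 6 and 1, and of striatal projection neuron genes 5 of 10 measured and 4.

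At 6 h some of the related genes were called. In the EF-hand list 2 of 25 fell in MGE and 4 fell in CTX, and 0 rose in either, while in CTX with the repeat as a block 2 rose and 4 fell. Kcnip3, which encodes the potassium channel partner and repressor DREAM, fell by 1.02 ± 0.21 in MGE and by 0.79 ± 0.21 in CTX. Cabp7, a calmodulin-like protein, fell by 1.17 ± 0.22 in CTX. In the background, 22.8% of all probe sets were called at 6 h in MGE, 34.6% in CTX and 38.0% in CTX with the block, so the EF-hand list lay under these shares.

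In the Pvalb-cell list 4 of 15 rose and 0 fell at 6 h in MGE, and 1 rose and 3 fell in CTX, or 2 and 4 with the block. Kcna2 rose by 0.97 ± 0.16 in MGE and fell by 1.03 ± 0.16 in CTX, and Kcna1, another potassium channel subunit, rose in both, by 0.95 ± 0.31 and 1.21 ± 0.31. Nefh, the heavy neurofilament, fell by 1.38 ± 0.41 in CTX. In the calretinin-cell list 1 of 12 rose in MGE and 3 in CTX, or 5 in CTX with the block, and 0 fell. Crh, corticotropin-releasing hormone, rose by 2.36 ± 0.58 in MGE and by 4.64 ± 0.58 in CTX, and in CTX Prox1, a transcription factor of CGE interneurons, rose by 5.13 ± 0.48. Between genotypes, averaged over times, 0 genes of these 3 lists were called in limma's fit. An unadjusted p under 0.05 was found there for 2 EF-hand genes, 4 Pvalb-cell genes and 2 calretinin-cell genes in MGE, and for 3, 0 and 1 in CTX, where 23% of all probe sets had one in MGE and 4.23% in CTX.

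The genes with the most similar pattern were taken by Pearson's correlation over the 12 group means, among 11779 genes, as a description. For Pvalb they were Slc32a1, the vesicular GABA transporter (0.998), Hspg2, perlecan (0.998), Dock11 (0.998), Ifitm1 (0.997) and Lrrk1 (0.997). For Calb2 they were Pgm2l1 (0.997), Cck (0.997), the projection neuron factor Fezf2 (0.996), Cnr1 (0.996) and Grm2, a glutamate receptor (0.994). Because the split between MGE and CTX dominates both members, values this high were reached by genes that share that split. For Calb1 by 1417504_at they were Sp1 (0.979), Kdm2a (0.979), Mbd2 (0.975), Pip5k1a (0.965) and Carnmt1 (0.964), whose MGE and CTX means lay closer together, for Sp1 at 8.56 and 9.16.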

How the data were processed

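Messenger RNA of 24 samples was read on Affymetrix Mouse 430 2.0 arrays. The authors deposited 1 linear intensity per probe set and array, from 6.61 to 29464, made with RMA per the submitters' processing notes (version not given). That method removes background, forces a common distribution on the arrays and summarizes probes, which hides any change that most genes share. Whether MGE and CTX arrays went through it as 1 batch is not given in the sources used here. Intensities were converted to log2 here without further scaling. Gene symbols came from GEO's platform annotation: 34958 probe sets had 1 symbol, 932 several and 9211 none, and the 3 members carry the same symbols in RefSeq.

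The model was fitted with limma 3.58.1 (R 4.3.3) as 12 group means over 24 arrays and no filter on low signal, which keeps all 6 member probe sets and 64 control probe sets in the fit (12 residual and 3.09 prior degrees of freedom). The 33 comparisons were two-sided, adjusted by Benjamini-Hochberg over 45101 probe sets and called under 0.05. The steps were tested on simulated data. The members, lists and tests were chosen with earlier results of these data known. List genes are represented by their highest-mean probe set, and up to 4 called genes of largest difference per list were eligible to be named, with the 5 genes most similar to each member and Npas4. Vip, Trp73, Lhx1, Lhx5 and Ebf2 were named for their low signal after their values were seen. Low signal of a member was judged against the array median, and list genes were counted as measured whatever their signal.

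Repeat numbers come from the labels. Deviations of same-numbered arrays from their group means correlated over 0.1 in 15 of 15 pairs of CTX groups (0.115 to 0.683), so the numbers pair the CTX arrays, and in 12 of 15 pairs of MGE groups (-0.281 to 0.793), so by the same rule they do not pair the MGE arrays. The 3 that missed it all involve MGE WT at 0 h, and the other MGE groups passed in 10 of 10 pairs. The replicate block below put a repeat term for MGE and another for CTX into the same fit, so it blocked MGE as well. The number of arrays limits the precision. Alternatives were a filter on low signal, 1 probe set a gene, a mean-variance trend, an offset of 32, cyclic loess, quantile normalization, a replicate block, each cell type alone, leaving out each array and, chosen after seeing the data, leaving out the control probe sets and the filter together with the block.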

Additional observations from a re-analysis of the deposited data

Results flagged for a closer look

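Among the list genes described at 6 h, 2 differed between the cultures in their response to KCl in limma's fit, each in both genotypes. For Kcna2 the 6 h minus 0 h difference in MGE exceeded that in CTX by 2.01 ± 0.32 in KO (adjusted p = 0.0025) and by 1.99 ± 0.32 in WT (0.0027). For Prox1 the response in MGE minus that in CTX was -4.43 ± 0.96 in KO (0.016) and -4.17 ± 0.96 in WT (0.018). The same difference was not called for Kcnip3, Cabp7, Kcna1, Nefh and Crh. With the repeat as a block Crh in KO was called as well, at -2.93 ± 1.16 without the block and an adjusted p of 0.0074 with it.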

How the results depend on the processing

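The 6 probe sets in 33 comparisons gave 198 results, 27 of them called. None turned its direction while called, in any alternative. The filter on low signal, 1 probe set a gene, the trend and leaving out the control probe sets kept every call they could test, and an offset of 32 lost 1 of 27, Calb1 1448738_at in MGE minus CTX in WT at 6 h. Of 232 called values in the fits that left out 1 array, 197 stayed called and 35 did not. Pvalb and Calb2 between the cultures kept every call in every alternative, with averages of 2.34 to 2.48 and -2.92 to -2.67 without 1 array. Pvalb and Calb2 were each read by 1 probe set, and 2 arrays a group limit what could be seen between genotypes.

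For Calb1 1417504_at, MGE minus CTX on average was -0.32 after quantile normalization and ranged from -0.44 to -0.29 without 1 array, and 6 h minus 0 h in CTX was 0.70 after cyclic loess (adjusted p = 0.044). Values near 0 that were not called changed sign. After cyclic loess Calb2 KO minus WT in MGE was 0.040 and Pvalb at 6 h in MGE was 0.11. Without 1 array Calb1 1417504_at ranged from -0.0036 to 0.30 for KO minus WT in MGE and from -0.030 to 0.43 at 6 h in MGE. Calb2 KO minus WT ranged from -0.28 to 0.21 in MGE and from -0.13 to 0.18 in CTX. Pvalb at 6 h ranged from -0.23 to 0.17 in MGE and from -0.054 to 0.25 in CTX.

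With the replicate block 27 of 27 calls were kept and 21 were gained, of which 10 were single MGE minus CTX comparisons of Calb1. Calb1 1417504_at at 6 h in CTX was 0.63 with the block alone and 0.63 with the filter as well. In MGE, where the numbers missed the rule for pairing, Calb2 at 6 h was -0.51 with the block (adjusted p = 0.020) and -0.51 with the filter as well. Calb1 1456934_at was -0.58 (0.0058) on average and -0.67 (0.036) in KO. This makes 1 of 6 members called at 6 h in MGE KO with the block against 0 without it. Of all 45101 probe sets, 5635 were called with the block at 6 h in MGE KO and 11919 for the MGE average, so these calls say little about the members. The difference between MGE and CTX in the 6 h response of Calb1 1417504_at in KO was -0.65, called with the block (0.046) and not without it (0.64). Over all probe sets the block took the calls of KO minus WT to 147 against 55 for the MGE average, 22 against 1 for the CTX average, 73 against 24 in CTX at 6 h, 29 against 9 in MGE at 6 h and 14 against 9 in MGE at 0 h. For the difference between MGE and CTX in the response it took them to 13 against 2 in KO and 23 against 10 in WT at 1 h, and 2984 against 1970 in KO at 6 h.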
